A study of Rattus norvegicus with 28 samples.

Results

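The metallothionein and zinc-handling genes examined here were 5 rows of a striatal RNA sequencing table, chosen by symbol: Mt2A, Mt3, Mtf1, Slc30a1 and Slc30a3. All 5 were among the 39538 genes of the deposited table, and all 5 were among the 18222 genes that passed the minimum level for testing. The 28 libraries came from the striatum of male rats in a design of 2 genotypes by 2 treatments. ΔETorA rats (labelled TG) with a right-sided sciatic nerve crush gave 6 libraries, naive ΔETorA rats gave 8, wild-type (wt) rats with the crush gave 6, and naive wt rats gave 8. Every label, naive rats included, carries the time 12 weeks post injury. The study's design text calls the transgenic animals DYT-TOR1A rats, a model of a dystonia linked to the torsinA gene, and looks for genes and pathways that differ in expression. The strain, the age and the transgene's promoter are not given in the labels or design text. GEO's labels number the libraries singly without stating that each is a separate animal, and the p-values below therefore cover only the variation from library to library.

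Metallothioneins are small cysteine-rich proteins that bind zinc and copper and release them again. When free zinc in a cell rises, the zinc-finger factor encoded by Mtf1 binds metal response elements in promoters and drives metallothionein genes and Slc30a1, whose product (ZnT1) exports zinc across the plasma membrane. Mt2A is a broadly expressed, inducible metallothionein, whereas Mt3 is the brain-enriched form. Slc30a3 encodes ZnT3, which loads zinc into synaptic vesicles of a subset of glutamatergic neurons. In the striatum such terminals come largely from cortical neurons, whose cell bodies lie outside it.

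Mt2A lies on chromosome 19 from base 11307966 to 11308740 and Mt3 from base 11324708 to 11326112, both on the minus strand of Rnor_6.0, the build of the deposited table. On either side of them, on the same strand, lie Mt1, from base 11301991 to 11303007, and Mt4, from base 11339767 to 11341863. Mtf1 spans bases 142797340 to 142843896 of chromosome 5, Slc30a1 bases 110677810 to 110681683 of chromosome 13 and Slc30a3 bases 26629752 to 26650106 of chromosome 6, all on the plus strand. No other gene of the table overlapped any of the 5. Metallothionein copies resemble each other, so reads could have been split among Mt2A, Mt1 and Mt1m, and their separate levels are uncertain to that extent.

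The promoters of Mt2A, Mt3 and Slc30a1 are shown because these are the genes of the group that the Mtf1 factor is best known to act on, or that share their cluster. Each sequence is RefSeq's, of build GRCr8, running 5′ to 3′ from 250 bases before to 50 bases after the gene's start. Capitals mark every match to the core of the metal response element, TGCACNC or TGCGCNC, on either strand, which as read here also appears as GNGTGCA or GNGCGCA; no marked matches overlap.
Mt2A, chr19:10838659-10838958, minus strand: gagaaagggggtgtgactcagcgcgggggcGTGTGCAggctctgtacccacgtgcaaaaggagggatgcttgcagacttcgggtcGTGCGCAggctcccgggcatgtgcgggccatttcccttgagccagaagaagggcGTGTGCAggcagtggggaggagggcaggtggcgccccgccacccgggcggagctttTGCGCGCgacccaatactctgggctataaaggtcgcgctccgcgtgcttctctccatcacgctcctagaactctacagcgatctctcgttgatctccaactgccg
Mt3, chr19:10856031-10856330, minus strand: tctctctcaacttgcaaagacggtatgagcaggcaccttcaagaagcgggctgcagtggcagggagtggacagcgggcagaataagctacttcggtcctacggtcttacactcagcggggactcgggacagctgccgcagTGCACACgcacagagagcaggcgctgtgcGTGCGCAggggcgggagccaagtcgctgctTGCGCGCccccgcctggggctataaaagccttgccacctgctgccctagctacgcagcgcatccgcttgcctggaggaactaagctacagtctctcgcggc
Slc30a1, chr13:106021769-106022068, plus strand: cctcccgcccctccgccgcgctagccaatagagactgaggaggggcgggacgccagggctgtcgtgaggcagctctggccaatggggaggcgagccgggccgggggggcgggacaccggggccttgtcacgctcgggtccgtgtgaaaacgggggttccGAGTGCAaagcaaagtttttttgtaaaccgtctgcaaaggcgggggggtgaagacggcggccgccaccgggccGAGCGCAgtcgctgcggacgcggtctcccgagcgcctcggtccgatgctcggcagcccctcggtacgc
The Mt2A promoter held 4 matches, a number reached by 0.439% of the 33469 rat promoters of this length, and the Mt3 promoter held 3, reached by 1.68%. Slc30a1 and Mtf1 held 2 each, reached by 6.36% of promoters, and the Slc30a3 promoter held 0 in this window. The promoter of Mt1, which lies in the same cluster and is not shown, held 6, reached by 0.0388% of promoters. At least 1 match was found in 24.2% of all promoters. In the Mt2A promoter 3 of the 4 matches were on the opposite strand, and in both metallothionein promoters shown the match nearest the start had the letters TGCGCGC, beginning 55 bases before the start in Mt2A and 51 bases before it in Mt3. Base composition bears on such counts: the median promoter was 51.7% G and C, against 63.7% for Mt2A, 62.7% for Mt3 and 70.3% for Slc30a1. The Slc30a3 promoter, with 0 matches, was also 70.3% G and C. A match is a description of letters and not evidence of binding.

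Levels are given in RPM, reads per 1000000 reads assigned to genes, and differences as log2 of RPM plus 0.5 with their standard error (SE) from a limma fit across all tested genes. The libraries held 29151455 to 38407359 assigned reads. The human TOR1A transcript, which marks the transgene, measured 102.5 to 138.6 RPM in TG crush and 129 to 144 RPM in TG naive libraries, and 0 to 0.447 RPM in wt crush and 0 to 0.972 RPM in wt naive libraries. Striatal identity was checked with 14 markers of spiny projection neurons, whose summed level was 9352 to 16516 RPM in TG crush, 9233 to 15576 in TG naive, 14351 to 16761 in wt crush and 8213 to 16409 in wt naive libraries. Slc17a7, the vesicular glutamate transporter of cortical neurons, exceeded 20 RPM in 5 libraries, 1 TG crush, 1 TG naive, 0 wt crush and 3 wt naive, and results that rest on them are given also without them. The 5 genes were chosen with their differences between these groups known, so those differences are described and not tested.

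Mt3, the brain-enriched metallothionein, was counted with 4674 to 8023 reads per library. It measured from 149.5 RPM through a median of 162 to 189 RPM in TG crush libraries, and from 160.3 through 204 to 227 RPM in TG naive libraries. All 6 TG crush libraries lay below the TG naive median and 3 lay below the lowest TG naive library, so the groups overlapped. The means were 168 ± 17.1 RPM in TG crush (SD, n = 6) and 201 ± 21.2 RPM in TG naive libraries (SD, n = 8), a log2 difference of -0.26 (SE 0.07).

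In wt rats Mt3 had a nearly equal difference. It measured from 155.7 through a median of 165 to 179 RPM in wt crush libraries, and from 168 through 196 to 216 RPM in wt naive libraries. All 6 wt crush libraries lay below the wt naive median, and 5 of the 6 below the lowest wt naive library. The log2 difference was -0.23 (SE 0.07), and the interaction, the TG difference minus the wt difference, was -0.03 (SE 0.10). Between genotypes Mt3 differed by 0.05 (SE 0.07) in naive and by 0.02 (SE 0.08) in crush libraries, TG minus wt, within the spread of either group.

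Mt2A, the inducible metallothionein, was counted with 116 to 241 reads per library, so counting error alone gave a coefficient of variation of about 7.47% at its mean. It measured from 3.31 through a median of 4.04 to 5.92 RPM in TG crush libraries, and from 4.77 through 5.99 to 7.32 RPM in TG naive libraries. All 6 TG crush libraries lay below the TG naive median and 4 below the lowest TG naive library. TG crush replicates 223 and 220, at 5.92 and 5.45 RPM, stood within the TG naive range. The TG crush mean of 4.36 ± 1.10 RPM was 0.730 of the TG naive mean of 5.97 ± 0.770 RPM (SD, n = 6 and n = 8), a log2 difference of -0.43 (SE 0.13).

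In wt rats the Mt2A groups overlapped more. Mt2A measured from 4.13 through a median of 5.0 to 5.07 RPM in wt crush libraries, and from 3.40 through 5.69 to 6.77 RPM in wt naive libraries. All 6 wt crush libraries lay below the wt naive median, but none below the lowest wt naive library. The log2 difference was -0.16 (SE 0.13). The interaction was -0.27 (SE 0.18). Between genotypes, TG minus wt, Mt2A differed by 0.11 (SE 0.12) in naive and by -0.17 (SE 0.13) in crush libraries.

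**Figure D1:**
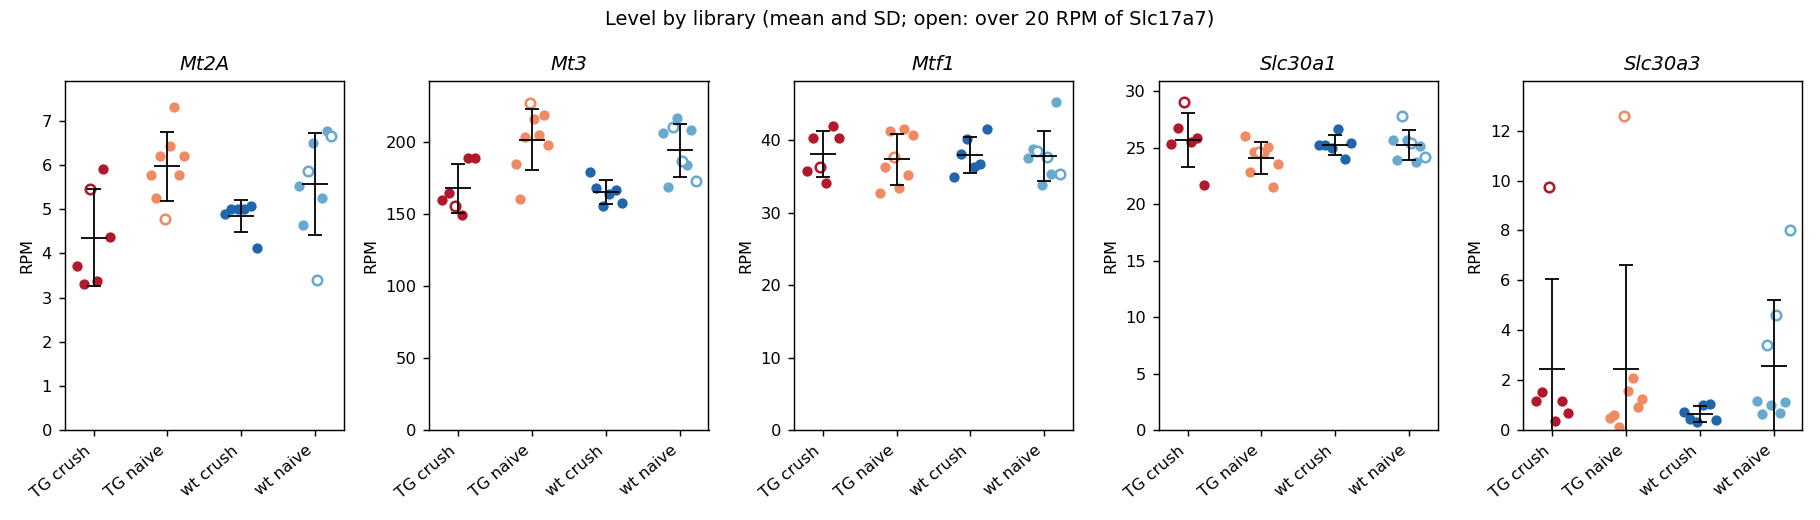
Level of each gene in RPM (vertical axes, from 0) in every library of the 4 groups, with the group mean and SD in black (drawn no lower than 0); open points are the 5 libraries over 20 RPM of Slc17a7. Mt2A and Mt3 sat lower in TG crush than in TG naive libraries, Mtf1 and Slc30a1 overlapped throughout, and the 5 highest Slc30a3 points were the open ones.

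Mtf1, the zinc-sensing transcription factor itself, had similar ranges in the 4 groups. It measured from 34.1 through 38.2 to 41.9 RPM in TG crush, from 32.7 through 37.0 to 41.5 RPM in TG naive, from 34.9 through 37.4 to 41.6 RPM in wt crush and from 33.8 through 37.6 to 45.2 RPM in wt naive libraries. The 4 ranges overlapped nearly completely, and wt naive replicate 201 was the highest. Its log2 differences were 0.03 (SE 0.06) for TG crush minus TG naive and 0.01 (SE 0.06) for wt crush minus wt naive, and its genotype differences were -0.02 (SE 0.06) in naive and 0.00 (SE 0.07) in crush libraries.

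Slc30a1, the zinc exporter that the same factor drives, varied least, with a coefficient of variation of 6.38% over the 28 libraries. It measured from 21.7 through 25.7 to 29.1 RPM in TG crush, from 21.6 through 24.6 to 26.0 RPM in TG naive, from 24.0 through 25.3 to 26.6 RPM in wt crush and from 23.7 through 25.3 to 27.8 RPM in wt naive libraries. The TG crush group held both the highest library, replicate 220, and one of the lowest, replicate 226. The log2 difference was 0.09 (SE 0.05) for TG crush minus TG naive and 0.00 (SE 0.05) for wt crush minus wt naive. Both metallothioneins had negative differences in each crush comparison, while the differences of Mtf1 and Slc30a1 were positive or near 0.

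Slc30a3, the vesicular zinc transporter, exceeded 0.5 RPM in 22 of 28 libraries. It measured from 0.379 through 1.18 to 9.76 RPM in TG crush, from 0.111 through 1.09 to 12.6 RPM in TG naive, from 0.309 through 0.576 to 1.07 RPM in wt crush and from 0.632 through 1.15 to 8.02 RPM in wt naive libraries. A count of 0 would allow at most 0.103 RPM in the shallowest library, for counting error only. The lowest value, 0.111 RPM from 4 reads, was in TG naive replicate 189, where that limit is 0.083 RPM, so it stood just above it. A few libraries carried most of the reads, and wt crush was the group without such a library. The log2 differences were 0.14 (SE 0.55) for TG crush minus TG naive, -1.07 (SE 0.55) for wt crush minus wt naive, -0.38 (SE 0.51) for TG naive minus wt naive and 0.83 (SE 0.59) for TG crush minus wt crush.

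**Figure D2:**
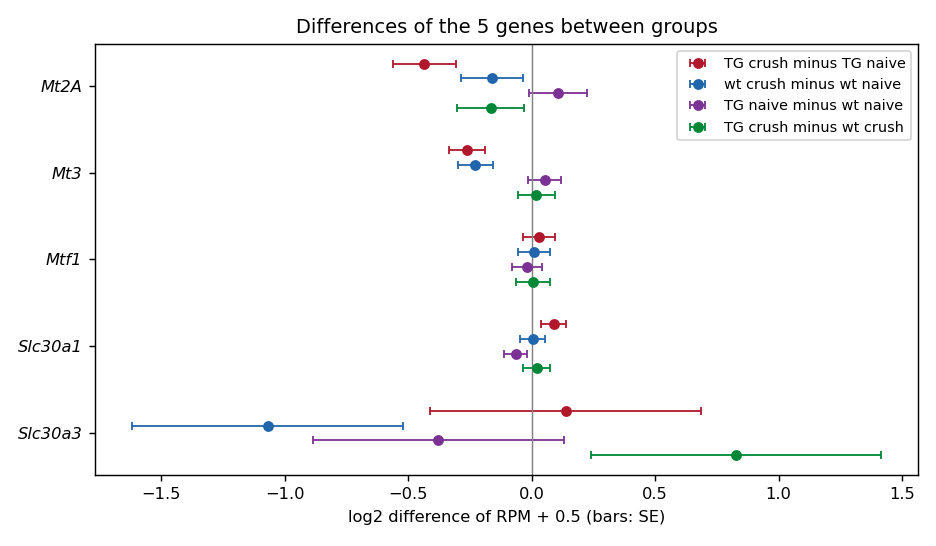
Log2 difference of RPM plus 0.5 (horizontal axis) of the 5 genes (rows) in 4 comparisons, with bars of 1 SE. Mt3 lay at -0.26 in TG and -0.23 in wt rats for crush minus naive, Mt2A at -0.43 and -0.16, Mtf1 and Slc30a1 near 0, and Slc30a3 had the widest bars.

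Over all genes tested, limma called 3.08% at an adjusted p under 0.05 for TG crush minus TG naive, and 1 of the 5 genes was called, Mt3, with its lower level in TG crush. For wt crush minus wt naive 0.159% of genes were called and 0 of the 5. The share was 0.0329% for TG naive minus wt naive and 0.00549% for both TG crush minus wt crush and the interaction, with 0 of the 5 in each. The groups were fully separated for 0 of the 5 genes in any pairwise comparison, against 0.73% of genes for TG crush minus TG naive, 0.648% for wt crush minus wt naive, 0.0494% for TG naive minus wt naive and 0.384% for TG crush minus wt crush. Which genes passed in TG rats varied with the libraries, the unit, the filter and the fit. Without the 5 libraries over 20 RPM of Slc17a7, where 1.0% of all genes were called, 1 of 5 was called, but it was Mt2A at -0.54 (SE 0.11), and Mt3 stood at -0.22 (SE 0.08) and was not called. On RPKM, where 4.33% of all genes were called, so were 2 of the 4 genes above that unit's minimum, Mt2A and Mt3. With a covariate for the level of spiny neuron markers, where 6.42% were called, Mt2A and Mt3 were called too. With no filter on low values (1.2% of all genes called) and with the TG groups fitted alone (0.715%), 0 of the 5 were called.

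Marker levels of several cell types differed between the groups compared. As background for the marker counts, limma called 3.08% of all genes for TG crush minus TG naive and 0.159% for wt crush minus wt naive. An unadjusted p under 0.05 was reached by 3509 and 3796 of the 18222 genes tested. The summed level of 18 astrocyte markers was 10788 to 14213 RPM in TG crush and 12390 to 14570 RPM in TG naive libraries, and 11523 to 12794 RPM in wt crush and 11739 to 15056 RPM in wt naive libraries. All 18 passed the minimum level. Their median log2 difference was -0.13 for TG crush minus TG naive, where Ndrg2 alone was called, at -0.32 (SE 0.08, limma adjusted p = 0.0264), and -0.16 for wt crush minus wt naive, where limma and limma-voom called 0 of the 18 (8 at an unadjusted p under 0.05), against -0.01 and -0.03 over all genes. For TG crush minus TG naive, 1 of 12 microglial markers was called lower (C1qb, at -0.36, limma adjusted p = 0.0317) and 2 of 9 endothelial markers (Pecam1 at -0.37, adjusted p = 0.0123, and Tek at -0.29, adjusted p = 0.0374), with medians of -0.14 and -0.18. For wt crush minus wt naive the medians were -0.26 and -0.15, with 0 called by limma or limma-voom and 8 of 12 and 2 of 9 at an unadjusted p under 0.05. Of the neuronal lists, 14 spiny neuron markers had a median of -0.05 in TG and 0.38 in wt rats, and 7 cortical markers tested had 0.05 in TG and -0.72 in wt rats. limma and limma-voom called 0 of either neuronal list in both comparisons, with 0 of each in TG and 10 of 14 and 4 of 7 in wt rats at an unadjusted p under 0.05. The 4 blood genes tested had a median of 0.86 in TG and 0.11 in wt rats. Of them, 3 in TG and 0 in wt rats reached an unadjusted p under 0.05. Medians were -0.19 and -0.49 for 6 choroid plexus markers, and 0.00 and -0.08 for 10 oligodendrocyte markers, with 0 at that p. limma and limma-voom called 0 of these lists in both comparisons. The part of microglia, endothelium, cortical neurons, blood, choroid plexus and oligodendrocytes in the metallothionein differences was not tested with a covariate. With the mean astrocyte level as a covariate, the Mt3 difference was -0.15 (SE 0.06) in TG and -0.07 (SE 0.06) in wt rats, the Mt2A difference was -0.36 (SE 0.13) in TG and -0.05 (SE 0.15) in wt rats, and 0 of the 5 genes were called, against 3.03% of all genes in TG and 0.0439% in wt rats. In bulk tissue, fewer cells of a type and less RNA per cell cannot be told apart.

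Relations among libraries were taken within groups, on each library's deviation from its group mean. The differences between groups, by which the genes were chosen, do not enter these deviations. The pairs were still chosen with earlier results of these data known, so their p-values are not independent of those results. Each pair of values shares its library's depth and scaling. Of the 8 relations computed, Mt3 with the astrocyte level was among the strongest, with Pearson's r = 0.71 (permutation p = 0.0002, adjusted 0.0008) and Spearman's rho = 0.67 (permutation p = 0.0008, adjusted 0.0032) over 28 libraries. Without the 2 libraries whose astrocyte deviations lay farthest from the median deviation, r was 0.62 (permutation p = 0.00275, adjusted 0.011). Without the 5 libraries over 20 RPM of Slc17a7, r was 0.72 (permutation p = 0.00108, adjusted 0.00216). How many other genes followed the astrocyte level as closely was not computed. Over the 28 libraries Mt3 had a higher r with Rpl18 (0.93) and Rpl31 (0.92), which are not among the astrocyte markers.

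The relation of Mt2A to the astrocyte level depended on which libraries were included. Over all 28 libraries r was 0.27 (permutation p = 0.268, adjusted 0.428) and rho 0.27 (permutation p = 0.246, adjusted 0.394), and r was 0.03 without the 2 farthest libraries. In the 23 libraries under 20 RPM of Slc17a7 r was 0.76 (permutation p = 0.00098, adjusted 0.00216) and rho 0.67 (permutation p = 0.0057, adjusted 0.0114). Within the 23, r was not computed again without the farthest libraries. Mt3 and Mt2A had the same split: r was 0.33 (permutation p = 0.123, adjusted 0.246) and rho 0.32 (permutation p = 0.138, adjusted 0.277) over 28 libraries, and r was 0.71 (permutation p = 0.0007, adjusted 0.00216) over the 23. In wt naive replicate 199 and TG naive replicate 190, both over 20 RPM of Slc17a7, Mt2A was the lowest of its group while the astrocyte level was above its group's mean.

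**Figure D3:**
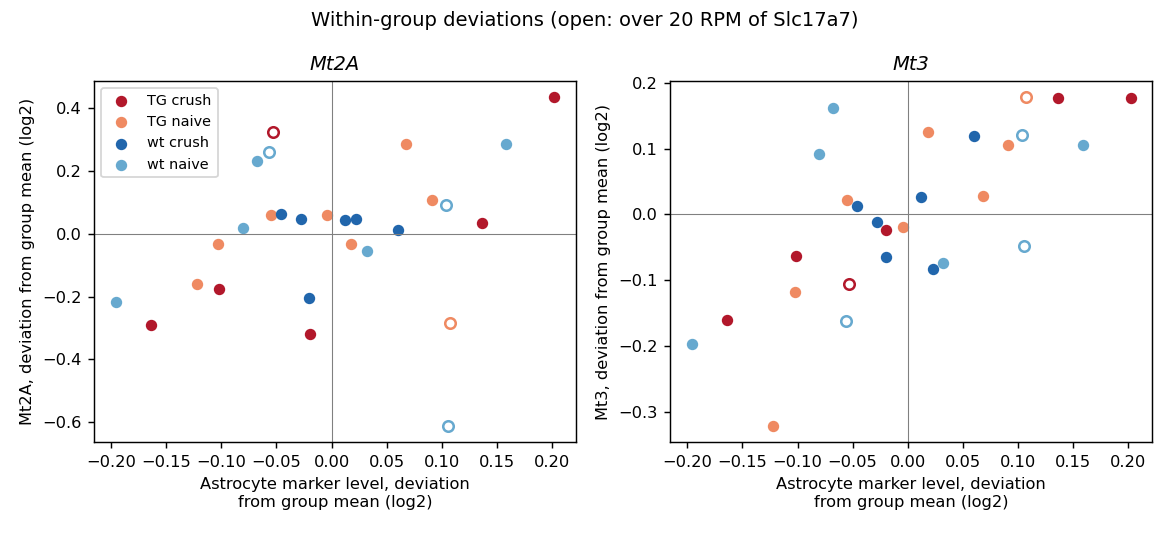
Deviation of Mt2A (left) and Mt3 (right) from the group mean against the deviation of the astrocyte marker level, all on log2 scales, 1 point per library; open points are the 5 libraries over 20 RPM of Slc17a7. Mt3 followed the astrocyte level over 28 libraries (r = 0.71), whereas for Mt2A r was 0.27 over 28 and 0.76 over the 23 filled points.

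Mtf1 had r = 0.44 with the astrocyte level (permutation p = 0.0338, adjusted 0.0902; rho = 0.43, permutation p = 0.0379, adjusted 0.101), which did not pass the adjustment. No relation of Slc30a1 passed, with the astrocyte level (r = -0.04, rho = 0.05), with Mt2A (r = 0.14, rho = 0.19) or with Mtf1 (r = -0.06, rho = 0.04), at adjusted permutation p of 0.889, 0.762 and 0.889 for r and 0.869, 0.520 and 0.869 for rho. Without the 2 farthest libraries r was 0.46 for Mtf1 with the astrocyte level, and -0.16, 0.21 and 0.05 for the 3 relations of Slc30a1.

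Slc30a3 tracked Slc17a7 library by library. The 5 libraries over 20 RPM of Slc17a7 (24.0 to 63.3 RPM) held 3.41 to 12.6 RPM of Slc30a3, and the other 23 libraries (2.11 to 10.6 RPM of Slc17a7) held 0.111 to 2.08 RPM, with no overlap. Because these libraries form a separate cluster, the relation was computed within the 23, where r was 0.86 (permutation p = 1e-05, the smallest that the resampling can give, adjusted 8e-05) and rho 0.84 (permutation p = 4e-05, adjusted 0.00032). Without the 2 libraries whose Slc17a7 deviations lay farthest from the median deviation, r was 0.81 over 21 libraries (permutation p = 0.00014, adjusted 0.00112). Without the 5 libraries the Slc30a3 differences were 0.07 (SE 0.28) for TG crush minus TG naive, -0.33 (SE 0.29) for wt crush minus wt naive, -0.04 (SE 0.28) for TG naive minus wt naive and 0.36 (SE 0.29) for TG crush minus wt crush. In wt rats, the libraries left out were wt naive replicates 197, 199 and 202.

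**Figure D4:**
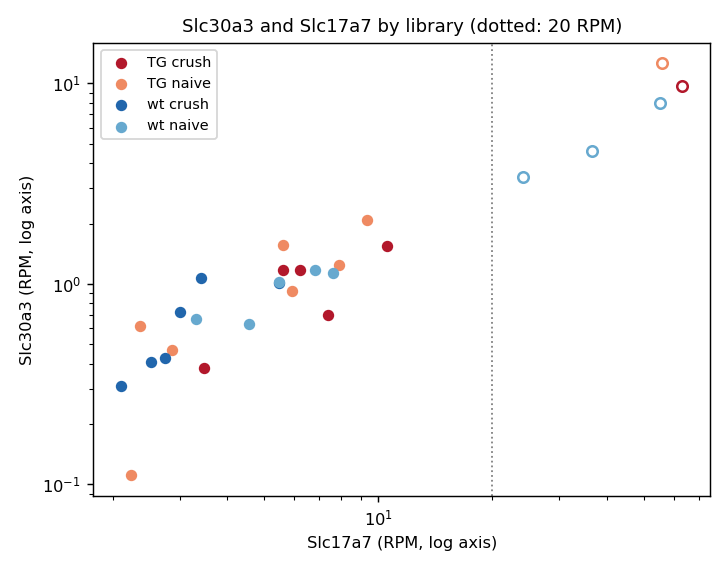
Slc30a3 against Slc17a7 in RPM, both on log axes, 1 point per library colored by group, with a dotted line at 20 RPM of Slc17a7. The 5 open points to the right of the line hold 3.41 to 12.6 RPM of Slc30a3, all above the other 23.

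The genes most like each of the 5 were found among 10954 genes by Pearson's r of within-group deviations over 28 libraries, as a description. For Slc30a3 they were Slc17a7 (r = 0.97), Stx1a, a presynaptic membrane-fusion protein (0.94), Olfm1, a secreted neuronal protein (0.91), and Nptxr, the neuronal pentraxin receptor (0.91); over the 23 libraries these were 0.86, 0.69, 0.69 and 0.44. For Mt3 they were the ribosomal protein genes Rpl18 (0.93) and Rpl31 (0.92), the endosomal GTPase Rab5c (0.92) and the mitochondrial ribosomal gene Mrpl52 (0.91). For Mt2A they were the cytokine Tnfsf13 (0.71), the immune-cell surface protein Cd48 (0.70), the caveolar coat gene Ptrf (0.66) and Zfand1 (0.66). Mtf1 was most like Tanc1, a synaptic scaffold (0.89), the lipid transporter Abca2 (0.88), Zfp536 (0.88) and the potassium channel Kcna6 (0.88). Slc30a1 was most like the membrane-fusion proteins Stx17 (0.79) and Vamp4 (0.73), Ccdc14 (0.73) and the splicing kinase Clk4 (0.70). No gene of the 5 was named as most like another of the 5.

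Beyond the 5, Mt1m and Mt1 had crush differences of opposite sign in TG rats, and neither was called in the fit of all 28 libraries. Mt1m, chosen for mention after its values were seen, had r = 0.82 with Mt2A over 28 libraries; it lies on chromosome 20 and is a pseudogene in the current RefSeq annotation. It averaged 6.78 ± 1.30 RPM in TG crush and 9.30 ± 1.79 RPM in TG naive libraries (SD, n = 6 and n = 8), a log2 difference of -0.43 (SE 0.13, limma adjusted p = 0.0739), and all 6 TG crush libraries lay below the TG naive median. Mt1, likewise chosen, had r = 0.39 with Mt2A and averaged 4.19 ± 0.704 RPM in TG crush and 3.48 ± 0.677 RPM in TG naive libraries (SD, n = 6 and n = 8), a difference of 0.24 (SE 0.15, limma adjusted p = 0.390). In wt rats the differences were -0.25 (SE 0.13) for Mt1m and -0.16 (SE 0.15) for Mt1. Mt4 had reads in 7 of 28 libraries, at most 0.0587 RPM.

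Of 25 other zinc genes with a row of their own, metallothioneins and the transporter families SLC30 (export from the cytosol) and SLC39 (import into it), 19 passed the minimum level. limma called 0 of the 19 in all 5 comparisons, as did limma-voom on whole reads. At an unadjusted p under 0.05 there were 4 for TG crush minus TG naive, 3 for wt crush minus wt naive, 2 for TG naive minus wt naive and 0 for the other 2 comparisons. Over all 18222 genes tested, the numbers at that p were 3509, 3796 and 907 in the same order. They were 1468 for TG crush minus wt crush and 1364 for the interaction. The median log2 difference of the 19 was 0.04 for TG crush minus TG naive and -0.00 for wt crush minus wt naive, against -0.01 and -0.03 over all genes. In TG rats 13 of the 19 had a positive crush difference, and in wt rats 9 of the 19. The share of all genes with a positive difference was not computed. On data simulated for the TG comparison, the test recovered 18% of genes changed 1.2-fold and 86% of those changed 1.5-fold. The spread between libraries was set by hand there and not estimated from these libraries. Among the 19 genes the residual SD in log2 ran from 0.07 (Slc30a9) to 0.73 (Slc39a12). The simulated shares therefore do not carry over to each zinc gene, whose spread could be smaller or larger than the simulated one.

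The zinc genes of lowest p are named by comparison. For TG crush minus TG naive, after Mt1m, they were Slc30a5, which moves zinc into the secretory pathway, at 0.23 (SE 0.07, limma adjusted p = 0.0710), and the importer Slc39a11 at 0.17 (SE 0.07, adjusted p = 0.160). Slc30a5 measured 32.0 through 41.6 to 45.0 RPM in TG crush and 30.7 through 33.4 to 40.5 RPM in TG naive libraries. Of the 6 TG crush libraries, 4 lay above every TG naive library and 1 lay below the TG naive median. For wt crush minus wt naive the genes were Slc30a4, a vesicular zinc transporter, at 0.29 (SE 0.09, limma adjusted p = 0.130), the plasma membrane importer Slc39a1 at -0.16 (SE 0.05, adjusted p = 0.144) and Slc30a5 at 0.17 (SE 0.07, adjusted p = 0.187). Slc30a4 measured 73.9 through 82.4 to 85.4 RPM in wt crush and 53.6 through 65.6 to 80.0 RPM in wt naive libraries, with 4 of 6 wt crush libraries above every wt naive library.

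Between genotypes in naive rats the lowest p values belonged to Slc39a11 at -0.16 (SE 0.06, limma adjusted p = 0.946), Slc39a12, a brain-enriched zinc importer, at 0.70 (SE 0.34, adjusted p = 0.980), and Slc30a5 at -0.11 (SE 0.07, adjusted p = 0.999). Slc39a12 varied most of these, from 13.5 to 36.2 RPM in TG naive and from 2.78 to 31.3 RPM in wt naive libraries. Between genotypes after the crush they were the importer Slc39a10 at 0.15 (SE 0.08, limma adjusted p = 0.631), Mt1 at 0.22 (SE 0.16, adjusted p = 0.716) and Slc39a13, a zinc transporter of the secretory pathway, at 0.08 (SE 0.06, adjusted p = 0.738). For the interaction they were Slc39a12 at -1.03 (SE 0.52, limma adjusted p = 0.658), Mt1 at 0.40 (SE 0.21, adjusted p = 0.663) and Slc39a13 at 0.12 (SE 0.08, adjusted p = 0.720).

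**Figure D5:**
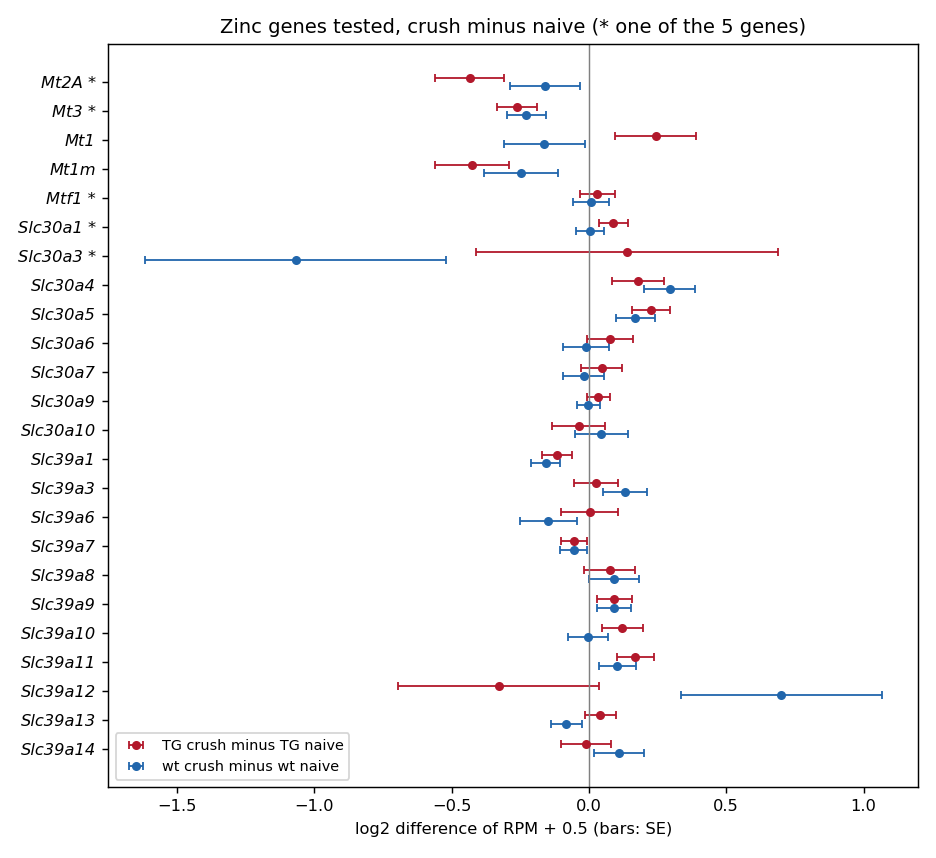
Log2 difference of RPM plus 0.5 (horizontal axis, bars of 1 SE) for crush minus naive in TG rats and in wt rats, for the 19 other zinc genes tested and the 5 genes, which are starred. Mt2A, Mt3 and Mt1m lay left of 0 in both genotypes, Slc30a4 and Slc30a5 right of 0 in both, and Mt1 at 0.24 in TG and -0.16 in wt rats.

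Lists of neighbouring pathways were read in the same fit. Their counts stand against 3.08% of all genes called for TG crush minus TG naive and 0.159% for wt crush minus wt naive. At an unadjusted p under 0.05 there were 3509 and 3796 of all 18222 genes tested in those comparisons. For TG crush minus TG naive, 1 of 10 copper genes was called, Cox17, a copper chaperone of the mitochondria, at -0.27 (SE 0.07, limma adjusted p = 0.0264). Of 7 iron genes tested, 1 was called, the transferrin receptor Tfrc, at 0.42 (SE 0.09, limma adjusted p = 0.0106). Glucocorticoids are known inducers of metallothioneins, and of 15 glucocorticoid-responsive genes 1 was called, the cell-cycle inhibitor Cdkn1a, at -1.20 (SE 0.18, limma adjusted p = 0.000186), while the list's median was 0.13. Of 12 antioxidant genes of the NRF2 pathway 0 were called by limma, with 4 at an unadjusted p under 0.05, and of 4 tested genes for synaptic zinc sorting and sensing 0 were called, with 0 at that p. For wt crush minus wt naive 0 genes of these lists were called by limma, with 3 of 10 copper, 1 of 7 iron, 4 of 15 glucocorticoid-responsive, 5 of 12 NRF2 and 1 of 4 synaptic zinc genes at an unadjusted p under 0.05. limma-voom gave the same counts of calls in these lists for both crush comparisons.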

How the data were processed

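Striatal RNA of 28 libraries was sequenced in single-end reads of 75 nt from a stranded mRNA kit, in 2 runs, per the labels' protocols. The labels do not tie libraries to runs, so no within-run value could be had. STAR 2.6.1a, featureCounts of Subread 1.6.3, DESeq2 1.22.2 and the build Rnor_6.0 are named in the submitters' processing notes, while the strand option of the counting step was not stated there. The authors deposited RPKM values with decimal commas, whose length was the gene span with introns for 100% of genes. RPKM times length in kilobases gave RPM, which was whole reads within a tolerance of 0.02 for 100% of values.

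Genes with at least 0.5 RPM in at least 6 libraries were fitted on log2(RPM + 0.5) with limma 3.58.1 (R 4.3.3), all 28 libraries in 1 fit on the 4 groups, with variances following the mean and Benjamini-Hochberg adjustment over all genes tested. Fold changes of low genes are understated on this scale. No 2 libraries of a group agreed within sampling noise. The fit was tested on simulated data with a spread set by hand, where 157 genes were called for TG crush minus TG naive, 5 of them wrongly. Relations used two-sided permutation tests within groups with 100000 resamples, adjusted over 8 relations (Python 3.11.15). The 5 genes, the gene lists and the tests were chosen with earlier results of these data known. Named genes were the 5, the 3 other zinc genes of lowest p per comparison, called genes of the pathway and cell type lists, and the 4 genes most like each of the 5 with a mean of at least 5 RPM. Of 166 listed genes, 163 had a row in the table. Promoters matched by gene for all 5. Alternatives were another unit, pseudocounts, no filter, another scaling, limma-voom, the compared groups alone, marker covariates, and leaving out libraries.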

Additional observations from a re-analysis of the deposited data

Results flagged for a closer look

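Of 56 sets of libraries examined, 14 genes in 4 groups each, 6 held a library that stood far from the rest of its group relative to the group's range. Chance alone gives about 1 in 20. Slc30a3 accounted for 2 of them. TG crush replicate 220 measured 9.76 RPM, against 1.54 RPM in the next library, and TG naive replicate 190 measured 12.6 RPM, against 2.08 RPM in the next. Both also exceeded 20 RPM of Slc17a7. Mt2A in wt crush replicate 210 measured 4.13 RPM, and the other 5 libraries of its group lay between 4.88 and 5.07 RPM. Mtf1 in wt naive replicate 201 measured 45.2 RPM, against 38.8 RPM in the next library. Among the other zinc genes, Slc30a4 in TG naive replicate 188 measured 91.2 RPM against 72.8 RPM in the next, and Slc39a12 in wt crush replicate 207 measured 26.8 RPM against 23.2 RPM in the next.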

How the results depend on the processing

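No paired analysis was possible because no replicate number is shared between groups. Of 940 log2 differences of the 5 genes under the alternatives, 939 moved by less than the gene's residual SD between libraries. The exception was Mt3 for wt crush minus wt naive, at -0.0655 (SE 0.0626) with the astrocyte level as a covariate. This tally is a weak check. Many of the 940 could not move, since leaving out a library of another group does not change a difference between 2 groups. The residual SD was 0.135 for Mt3 and 1.10 for Slc30a3, so sizeable moves could stay within it. Slc30a3 fell under the minimum on RPKM and has no value there. Leaving out each library in turn, the difference for TG crush minus TG naive ranged from -0.52 (without TG crush replicate 223) to -0.37 for Mt2A and from -0.31 to -0.23 for Mt3. It passed the threshold in 6 and 18 of 28 fits, over which 224 to 1218 of all genes were called. Where a wt library was left out, the TG difference itself could not change, only its variance and adjustment. The same difference of Slc30a3 ranged from -0.33 without TG crush replicate 220 to 0.55 without TG naive replicate 190. Of the other zinc genes, 1 was called for TG crush minus TG naive without the libraries over 20 RPM of Slc17a7 (Mt1m, -0.54, limma adjusted p = 0.0381) and 1 with a covariate for the level of spiny neuron markers (Slc30a5, 0.23, adjusted p = 0.0191). Leaving out libraries gave 0 to 2, with 2 (Mt1m and Slc30a5) without TG crush replicate 223 or 226 and 1 without TG naive replicate 188 or 190. For wt crush minus wt naive it gave 0 to 1, Slc30a4 without wt naive replicate 196. Without the libraries over 20 RPM of Slc17a7, r was 0.71 for Mt3 with Mt2A and 0.76 for Mt2A with the astrocyte level. The count of all genes called for TG crush minus TG naive was 562, against 371 with no filter, 127 with the 2 groups alone, 181 without the libraries over 20 RPM of Slc17a7, 1169 with the spiny neuron covariate, and 224 to 1218 leaving out libraries (TG crush replicates 220 and 223). For wt crush minus wt naive it was 29, against 19, 45, 15, 8 and 12 to 510 (wt naive replicates 197 and 196), and 8 with the astrocyte covariate. For TG naive minus wt naive it was 6, with 2 to 7 under the alternatives, for TG crush minus wt crush 1, with 1 to 6, and for the interaction 1, with 0 to 5. The causes were not tested. Read depth limits Mt2A and Slc30a3 most, at 116 to 241 and 4 to 375 reads per library.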
